A study of Mus musculus with 2 samples.

Results

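Cones that carry RNA of both cone opsins were described in mouse retina, in 1 single-cell RNA sequencing library per light condition. Both groups of mice were reared from postnatal day 14 under their light for 2 weeks, 1 group under short-wavelength light and the other under full-spectrum white light, and whole retina was collected for droplet sequencing. The labels name no strain, genotype or sex and do not say how many mice went into a library. The conditions therefore stand on 1 library each: a difference between them has no replicate check, and every interval below is exact, holds at 95% and covers counting error only.

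The cells were selected on their own measured RNA. A droplet counted as a cone when it held at least 300 genes and at most 20% mitochondrial transcripts, and when unique transcript counts (UMIs) of 6 genes together reached 10 and 1% of the droplet. The 6 genes were Arr3, Opn1sw, Opn1mw, Gnat2, Pde6h and Gngt2, and at least 5 UMIs had to come from the opsins. A cone had both opsins when Opn1sw made up more than 10% and less than 90% of its opsin UMIs. This gave 280 cells of 626 cones, out of 21790 kept cells: 210 of 455 cones under short-wavelength light and 70 of 171 under white light. The other cones were 92 and 47 Opn1sw-dominant cones and 153 and 54 Opn1mw-dominant cones. A further 6 and 9 droplets had the cone genes but fewer than 5 opsin UMIs and were left out. Throughout, where 2 values are given for 1 class, the first is from the short-wavelength library.

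Cones detect light with an opsin bound to a vitamin A derivative. Most mammals keep the short-wavelength opsin, Opn1sw, and the medium-wavelength opsin, Opn1mw, in separate cones. The mouse does not: many of its cones make both, with Opn1sw prevailing toward the ventral retina and Opn1mw toward the dorsal retina, beside a smaller population of cones that make Opn1sw alone. Thyroid hormone acting through the receptor gene Thrb promotes Opn1mw and represses Opn1sw.

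The opsin genes lie on different chromosomes, Opn1sw on chromosome 6 at 29376671 to 29388468 on the minus strand and Opn1mw on chromosome X at 74127464 to 74150760 on the plus strand (GENCODE vM21, mm10). The 250 bases before each RefSeq start (GRCm38.p6) are shown because these are the windows next to the RefSeq starts of the genes whose joint RNA defines the cells. They span chr6:29380514-29380763, read from the minus strand, and chrX:74127216-74127465, read from the plus strand. The Opn1sw window lies inside the GENCODE span of the gene, so the RefSeq start used here is not the GENCODE start at 29388468. Capitals mark matches to AGGTCA, the half-site of nuclear receptors such as the thyroid hormone receptor, on either strand.
Opn1sw: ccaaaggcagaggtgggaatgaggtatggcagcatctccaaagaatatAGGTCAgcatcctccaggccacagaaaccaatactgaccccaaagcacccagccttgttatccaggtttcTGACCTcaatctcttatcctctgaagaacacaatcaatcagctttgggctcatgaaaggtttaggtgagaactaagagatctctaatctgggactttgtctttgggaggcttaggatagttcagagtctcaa
Opn1mw: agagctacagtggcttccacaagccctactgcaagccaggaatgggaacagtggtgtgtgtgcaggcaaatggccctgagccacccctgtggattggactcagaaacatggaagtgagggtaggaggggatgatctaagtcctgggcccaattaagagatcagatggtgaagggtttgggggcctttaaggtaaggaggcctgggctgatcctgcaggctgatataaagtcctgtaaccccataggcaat

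The Opn1sw window held the half-site at 202 to 197 bases before the start and its reverse complement TGACCT at 132 to 127 bases before it, and the Opn1mw window held neither. Of 32851 RefSeq promoter windows of the same 250 bases, 14.02% held a match on either strand. The homeodomain motif TAATCC and its reverse complement GGATTA were in neither opsin window and in 6.252% of all windows. These are matches of letters in a short window and were not tested as binding sites.

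Within the selected cells Opn1sw made up the larger part of the opsin RNA. Under short-wavelength light their summed UMIs were 16497 of Opn1sw and 5748 of Opn1mw, which is 74.16% Opn1sw (73.58 to 74.73). Under white light they were 5696 and 2114, which is 72.93% (71.93 to 73.92). These sums describe the values that chose the cells. Opn1sw exceeded Opn1mw in 169 of 210 cells and in 54 of 70. The share of Opn1sw in single cells had a lowest value of 10.26%, a median of 75.87% and a highest value of 89.95% under short-wavelength light, and 11.11%, 70.46% and 89.74% under white light. The distribution was therefore uneven between the limits: only 29 of 210 and 11 of 70 cells had between 40% and 60% Opn1sw.

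**Figure D1:**
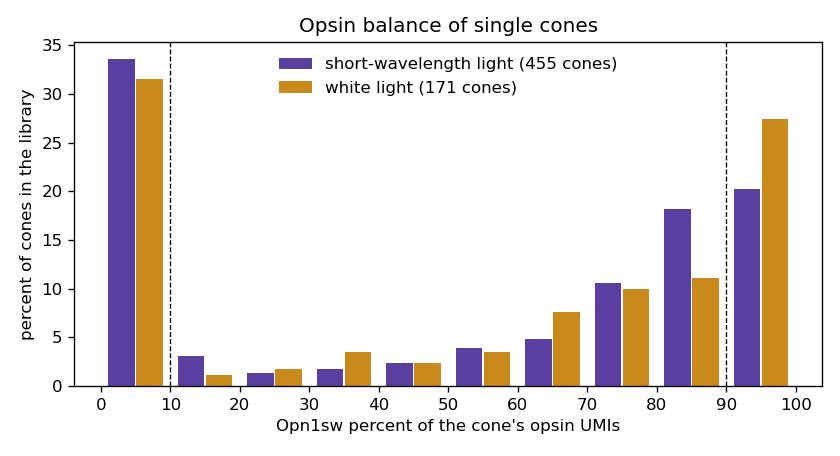
Percent of each library's cones (vertical axis) in bins of the Opn1sw percent of their opsin UMIs (horizontal axis), with the selection limits of 10% and 90% as dashed lines. Under both lights the bins between the limits fill toward Opn1sw, and the 2 outermost bins hold the largest shares.

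Which class was the most frequent depended on the limits. Cones with both opsins were 46.15% of the cones under short-wavelength light (41.5 to 50.86) and 40.94% under white light (33.49 to 48.7), and these intervals overlap. Opn1sw-dominant cones were 20.22% (16.62 to 24.21) and 27.49% (20.95 to 34.82), and Opn1mw-dominant cones were 33.63% (29.29 to 38.17) and 31.58% (24.7 to 39.11). With limits of 20% and 80% the 3 shares became 24.62% with both opsins, 38.46% toward Opn1sw and 36.92% toward Opn1mw under short-wavelength light, and 27.49%, 38.6% and 33.92% under white light, so that the class went from the most to the least frequent. At the limits of 10% and 90%, the intervals of both lights overlapped for each of the 3 classes. Overlap is not a test of a difference, and the difference between lights was not tested. Over all cones Opn1sw made up 66.42% of opsin UMIs (65.93 to 66.9) and 66.11% (65.34 to 66.88).

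Few of the cells lay close to the lower limit and many close to the upper one. Just inside the upper limit, from 85% to 90% Opn1sw, were 54 and 12 cells, and just outside it, from 90% to 95%, were 31 and 9 cones. Just inside the lower limit, from 10% to 15%, were 8 and 2 cells. The exact interval of a cell's own opsin share lay wholly between the limits in 135 of 210 and 46 of 70 cells. At least 10 UMIs of each opsin were present in 164 of 210 and 51 of 70 cells, while 3 and 7 cells rested on 1 UMI of their lesser opsin. The white-light library had more cells with thin evidence, 16 of 70 with fewer than 20 opsin UMIs against 12 of 210.

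Opsin UMIs in rods were taken as the background level. Rods, which make no cone opsin, had 57.97 and 63.28 CPM of Opn1sw (counts scaled by the summed UMIs of the class) and 33.17 and 36.92 CPM of Opn1mw. At that level a selected cell of median depth (7042 and 7448 UMIs, against 2405 and 2767 in rods) would hold 0.408 and 0.471 UMIs of Opn1sw and 0.234 and 0.275 of Opn1mw. The medians in the selected cells were 64.5 and 73.5 UMIs of Opn1sw and 26.5 and 29.5 of Opn1mw. Opn1mw-dominant cones had 59.26 and 56.11 CPM of Opn1sw, near the rod level, whereas Opn1sw-dominant cones had 586.1 and 402.6 CPM of Opn1mw, above it. These are sums: 42 of 92 and 22 of 47 Opn1sw-dominant cones had no Opn1mw UMI. No Opn1sw UMI was found in 117 of 153 and 42 of 54 Opn1mw-dominant cones.

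The level of each opsin in the selected cells lay below that of the cones where it dominates. Opn1sw was at 11056 and 10783 CPM, against 15556 and 16727 CPM in Opn1sw-dominant cones. Opn1mw was at 3852 and 4002 CPM, against 5905 and 7055 CPM in Opn1mw-dominant cones. Both levels follow from the selection and are given as a description.

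**Figure D2:**
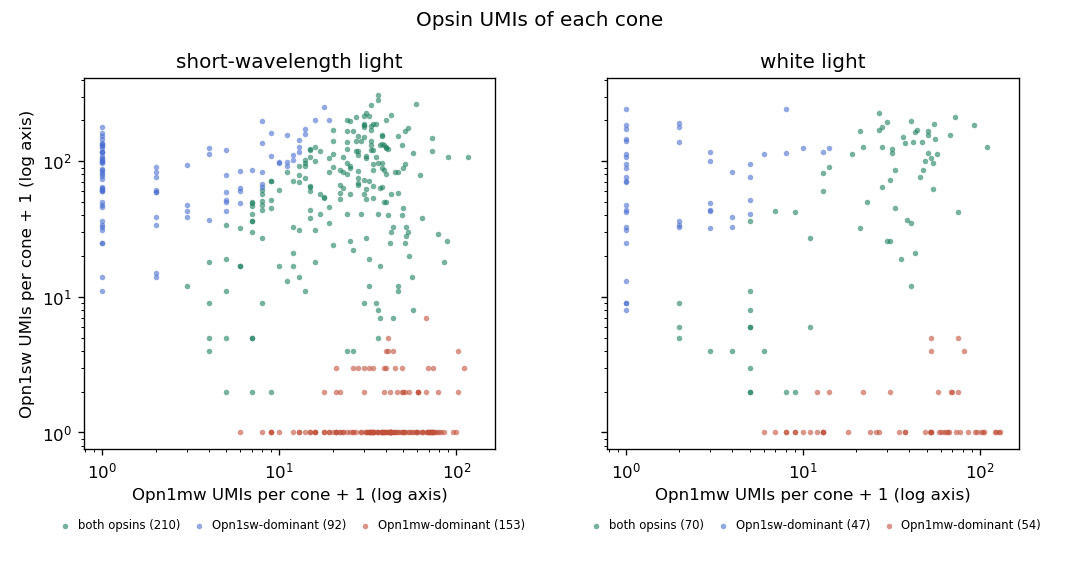
Opn1mw UMIs (horizontal log axis, plus 1) against Opn1sw UMIs (vertical log axis, plus 1) of each cone, by light condition, 1 point per cone. The cones with both opsins, 210 and 70, lie between the other classes. Many Opn1mw-dominant cones have 0 Opn1sw UMIs, and many Opn1sw-dominant cones have 0 Opn1mw UMIs.

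Genes that the selection did not use marked the cells as cones. Pde6c, the catalytic subunit of the cone phosphodiesterase, was at 1251 and 1225 CPM, against 8.716 and 9.396 CPM in rods. Cngb3, a subunit of the cone cyclic nucleotide-gated channel, was at 2650 and 2698 CPM against 16.46 and 16.58 CPM in rods. Gnb3, the beta subunit of the cone transducin, was at 2815 and 2554 CPM against 112.6 and 121.8 CPM. The cone label thus held on markers outside the rule, in both libraries.

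Rod RNA was nevertheless present in the selected cells. All 15 rod markers of the list were detected and summed to 20160 and 22056 CPM, against 23322 and 30838 CPM in Opn1sw-dominant and 18330 and 19382 CPM in Opn1mw-dominant cones. Of markers of other cells, Gad1, Gad2 and Slc32a1 (amacrine cells), Pou4f2 and Rbpms (ganglion cells), Vsx1 (cone bipolar cells) and Rpe65 (pigment epithelium) were at 0 in all 280 cells. Other members of the same lists had UMIs. They were 6 of 11 amacrine and horizontal, 6 of 10 ganglion cell, 5 of 12 cone bipolar and 6 of 10 pigment epithelium markers. Cone bipolar markers summed to 193.7 and 191.2 CPM, Müller glia markers to 179.6 and 240.4 CPM, and endothelial and pericyte markers to 594.4 and 696.7 CPM. Rod bipolar markers summed to 791.5 and 1062 CPM and erythrocyte markers to 29.49 and 312.4 CPM. In each library 2 selected cells held at least 30 UMIs of markers of other cells. Under short-wavelength light these cells held 82 and 35 UMIs of rod bipolar markers. Under white light 1 held 199 UMIs of rod bipolar markers and the other 143 UMIs of erythrocyte markers. Droplets like these are called mixed below. Droplets that caught 2 cones could also hold both opsins, and their part in the count was not tested. A doublet score was set to mark the highest 12.87% and 4.548% of the kept barcodes, and it marked 13.45% and 4.626% of rods. It marked 35 of 210 (16.67%) and 12 of 70 (17.14%) of the selected cells. Among Opn1sw-dominant cones it marked 17 of 92 (18.48%) and 3 of 47 (6.383%), and among Opn1mw-dominant cones 22 of 153 (14.38%) and 5 of 54 (9.259%). The selected cells thus lay further above the share of their library under white light. Without the droplets that the score marked, cones with both opsins were 45.93% and 38.41% of the cones. Median depth was 7042 and 7448 UMIs in the selected cells, 5401 and 3356 UMIs in Opn1sw-dominant and 6787 and 7298 UMIs in Opn1mw-dominant cones. More UMIs than these 2 dominant medians together were found in 22 of 210 (10.48%) and 16 of 70 (22.86%) selected cells. The same held for 4 of 92 (4.348%) and 6 of 47 (12.77%) Opn1sw-dominant and 11 of 153 (7.19%) and 12 of 54 (22.22%) Opn1mw-dominant cones.

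Against Opn1sw-dominant cones, the selected cells had less of the synaptic adhesion gene Nrxn3 and more of Thrb, Tshz2 and Alk. A gene was counted when it had at least 20 UMIs in each library, differed by more than 1.5-fold in the same direction in both libraries, and had an interval that left out 1 in both. Of 6339 genes measured, 79 met this rule, 63 higher and 16 lower in the selected cells, which is 1.25% of all genes. The genes named below are the first 10 in each direction by the smaller of the 2 differences, leaving out genes higher in rods than in cones, haemoglobin, ribosomal, mitochondrial, Y-linked and predicted genes and the X-inactivation RNAs. Only 9 genes qualified in the lower direction. The same selected cells enter the comparison with Opn1mw-dominant cones, so the 2 comparisons share them.

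Nrxn3 encodes neurexin 3, a presynaptic adhesion protein. It was at 235.9 and 321.8 CPM in the selected cells and at 1639 and 1484 CPM in Opn1sw-dominant cones, 6.95-fold (6.13 to 7.89) and 4.61-fold (3.83 to 5.57) lower. In Opn1mw-dominant cones it was at 291.7 and 237.2 CPM, so that the high level belonged to Opn1sw-dominant cones in both libraries. Under white light 56.47% of its UMIs in the selected cells came from a single cell. Wscd2, a sulfotransferase-domain gene, was likewise at 10.72 and 22.72 CPM against 69.95 and 79.67 CPM, with 1.823 and 0 CPM in Opn1mw-dominant cones.

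The high level of Nrxn3 did not begin at the selection limit. Cones just outside it, with 90% to 95% Opn1sw, had 86.39 and 250.2 CPM, whereas those with 95% to 100% had 2398 and 1676 CPM. Cones just inside it, with 85% to 90%, had 250.2 and 359.3 CPM. Kcne2, an accessory subunit of potassium channels, was at 1135 and 656.8 CPM from 90% to 95% and at 481.3 and 455.2 CPM from 95% to 100%. Tshz2, a zinc finger gene, was at 264.9 and 187.7 CPM and then at 47.85 and 72.64 CPM. In ratio, under short-wavelength light the 31 cones from 90% to 95% thus lay nearer to the selected cells than to the cones beyond 95% on all 3 genes. Under white light, with 9 such cones, this held for the values of Nrxn3 and Tshz2 and not for Kcne2. Those values rested on 8 UMIs of Nrxn3 (108 to 493 CPM), 6 of Tshz2 (68.87 to 408.4 CPM) and 21 of Kcne2 (406.6 to 1004 CPM). For Tshz2 and Kcne2 the interval reached both the level beyond 95% and that of the selected cells, so which was nearer cannot be told. The split at 95% was made after the values were seen.

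The remaining genes lower than in Opn1sw-dominant cones were at low levels. Apoe, a lipid carrier rich in Müller glia, was at 22.79 and 30.29 CPM against 58.61 and 71.29 CPM. Fabp7, a fatty acid binding protein, was at 30.83 and 43.54 CPM against 83.19 and 96.45 CPM. Cacna1h, a T-type calcium channel subunit, was at 36.19 and 20.82 CPM against 64.28 and 62.9 CPM. Cdr1os, Riiad1, Ralyl and Dusp23 were 1.82-fold to 3.42-fold lower.

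Thrb, the thyroid hormone receptor that Opn1mw depends on, was at 1171 and 1221 CPM against 752.5 and 637.4 CPM in Opn1sw-dominant cones. It was 1.56-fold (1.395 to 1.74) and 1.92-fold (1.603 to 2.301) higher in the selected cells. In Opn1mw-dominant cones it was at 1379 and 1189 CPM, and the level of the selected cells was 0.849 (0.792 to 0.91) and 1.03 (0.911 to 1.16) of that, on different sides of 1. Rods had 764.8 and 785 CPM, and the part of rod RNA in these levels was not tested.

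Genes higher than in Opn1sw-dominant cones included the receptor tyrosine kinase Alk, at 147.4 and 164.7 CPM against 58.61 and 8.387 CPM. The teneurin adhesion gene Tenm4 was at 98.52 and 68.15 CPM against 32.14 and 16.77 CPM. Tshz2 was at 307.6 and 325.6 CPM against 119.1 and 88.06 CPM, 2.58-fold (1.98 to 3.42) and 3.7-fold (2.34 to 6.13) higher. Both genes were also above the Opn1sw-dominant level in Opn1mw-dominant cones, where Tenm4 was at 92.99 and 96.92 CPM and Tshz2 at 420.3 and 436.1 CPM. Mdga2, an adhesion gene of the immunoglobulin family, was at 176.9 and 274.5 CPM against 24.58 and 8.387 CPM. Under white light 1 selected cell held 44.83% of the Mdga2 UMIs. Atp10a, Tbc1d2, Hmgcll1 and the chemokine Ccl9 were 2.56-fold to 5.42-fold higher.

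Pcp2 and Trpm1, both genes of ON bipolar cells, also met the rule, and their values rested on the mixed droplets. Pcp2 had 43 and 44 UMIs in the selected cells, of which 1 white-light cell held 97.73% of that library's, against 0 and 2 UMIs in Opn1sw-dominant cones. Neither gene met the rule without the droplets that carried at least 30 UMIs of other cells' markers. Of the 10 genes named as higher, 8 met it without those droplets and 8 without each class's richest cell; of the 9 named as lower, 8 and 7 did.

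Against Opn1mw-dominant cones, the selected cells had more Ccdc136 and Syndig1l and less Nr2f2, Cdh12 and Smug1. Of 7005 genes measured, 46 met the rule, 27 higher and 19 lower, which is 0.657% of all genes. The comparison sets cones that make some Opn1sw against cones with little or none.

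Ccdc136, a coiled-coil gene, lies beside Opn1sw, at 29396309 to 29426994 on the plus strand of chromosome 6. Between the GENCODE ends of the genes are 7840 bases with 0 other annotated genes. From the RefSeq start of Opn1sw used above, the distance is longer. It was at 1213 and 1249 CPM in the selected cells, at 1514 and 1451 CPM in Opn1sw-dominant cones and at 127.6 and 66.31 CPM in Opn1mw-dominant cones. That is 9.504-fold (7.999 to 11.37) and 18.84-fold (12.74 to 29.06) higher than in Opn1mw-dominant cones and 0.801 (0.737 to 0.872) and 0.861 (0.755 to 0.984) of the level in Opn1sw-dominant cones. Rods had 8.58 and 10.06 CPM. Calu and Atp6v1f, genes nearby, picked after the values were seen, had other patterns. Calu, which overlaps the end of Opn1sw on the other strand, was at 45.57 and 43.54 CPM in the selected cells against 38.29 and 35.71 CPM in Opn1mw-dominant cones, and Atp6v1f at 138.7 and 119.3 CPM against 148.6 and 193.8 CPM.

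Within the selected cells Ccdc136 varied with the opsin balance. From 10% to 50% Opn1sw it was at 695.1 CPM (604.1 to 796) under short-wavelength light, and from 80% to 90% at 1445 CPM (1351 to 1544). The white-light values were 1167 CPM (929.8 to 1447) and 1396 CPM (1200 to 1616), whose intervals overlap.

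Syndig1l, a transmembrane gene of the synapse-differentiation family, was at 177.6 and 178 CPM against 17.32 and 12.75 CPM, 10.25-fold (6.436 to 17.3) and 13.95-fold (5.772 to 43.97) higher. In Opn1sw-dominant cones it was at 173.9 and 155.2 CPM, near the selected cells. App, the amyloid precursor gene, was at 40.21 and 41.65 CPM against 2.735 and 5.101 CPM. Cabp5, a calcium-binding protein gene best known from bipolar cells, was at 77.74 and 92.76 CPM against 10.03 and 2.551 CPM, and Opn1sw-dominant cones had 66.17 and 125.8 CPM. It is also on the rod bipolar list. Galnt17 had 1 UMI in each Opn1mw-dominant sum against 30 and 21 in the selected cells, a ratio of 22.05 (3.666 to 899.7) and 15.59 (2.507 to 644.6). The adhesion genes Tenm3 and Cntn1 and the Wnt pathway receptor Lgr5 were 2.1-fold to 10.2-fold higher.

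Alk and Kcne2 had their highest level among the 3 cone classes in the selected cells, in both libraries. Alk was at 147.4 and 164.7 CPM, against 27.35 and 51.01 CPM in Opn1mw-dominant cones. Under short-wavelength light its low level in Opn1sw-dominant cones did not extend to all of them. Those with 90% to 95% Opn1sw had 144 CPM (93.18 to 212.5) and those beyond 95% had 16.89 CPM (6.197 to 36.76). Under white light these values were 31.28 CPM (0.7918 to 174.3), from 1 UMI in 9 cones, and 4.843 CPM (0.1226 to 26.98), whose intervals overlap. Kcne2 was at 979.1 and 995.8 CPM, against 506.9 and 525.4 CPM in Opn1mw-dominant cones, 1.93-fold (1.75 to 2.13) and 1.9-fold (1.61 to 2.24) higher. Against Opn1sw-dominant cones, at 695.7 and 482.2 CPM, Kcne2 was 1.41-fold (1.25 to 1.58) and 2.07-fold (1.69 to 2.55) higher, which misses the 1.5-fold limit in the short-wavelength library. Fabp7 was the reverse case, at 60.17 and 81.62 CPM in Opn1mw-dominant cones and thus lower in the selected cells than in both other classes.

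Nr2f2, a nuclear receptor gene of the dorsal retina, was at 8.042 and 5.679 CPM, against 64.73 and 73.97 CPM in Opn1mw-dominant cones. It was 8.05-fold (4.33 to 16.3) and 13.02-fold (4.037 to 66.81) lower, and it was at 7.562 and 4.193 CPM in Opn1sw-dominant cones. The cadherin gene Cdh12 was at 16.08 and 30.29 CPM against 126.7 and 206.6 CPM, with 0 and 8.387 CPM in Opn1sw-dominant cones. Smug1, a DNA repair glycosylase, was at 127.3 and 140.1 CPM against 333.7 and 344.3 CPM, 2.62-fold (2.19 to 3.14) and 2.46-fold (1.84 to 3.31) lower. Nr2f2 and Cdh12 were thus low in both cone classes that have Opn1sw above the rod level.

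Within the selected cells Smug1 was lower toward the Opn1sw end. It was at 232.8 CPM (181.5 to 294.2) and 337.5 CPM (216.3 to 502.2) from 10% to 50% Opn1sw, and at 73.8 CPM (53.83 to 98.75) and 93.07 CPM (48.09 to 162.6) from 80% to 90%. The protocadherin Pcdh9, the ephrin receptor Epha5, the transcription factor Zfhx4, the scaffold Dlg5 and the cyclase Adcy2 were 1.62-fold to 6.47-fold lower than in Opn1mw-dominant cones. Car8, which the rod bipolar list also holds, was at 20.11 and 43.54 CPM against 84.79 and 122.4 CPM, and 65.22% of its white-light UMIs in the selected cells came from 1 cell. Without mixed droplets 10 of the 10 named higher and 9 of the 10 named lower genes met the rule, and without each class's richest cell 9 and 7 did.

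**Figure D3:**
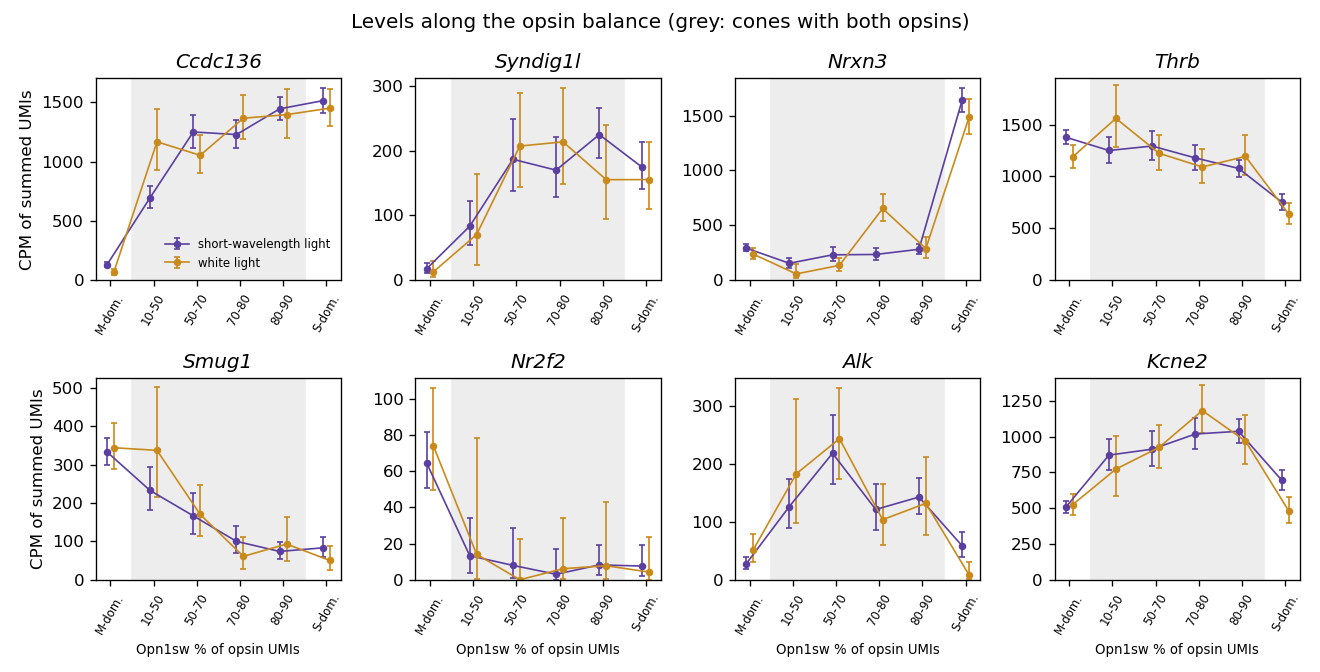
CPM of the summed UMIs (vertical axis, from 0) of 8 genes in Opn1mw-dominant cones, in 4 bins of the Opn1sw percent of opsin UMIs within the cones with both opsins (grey) and in Opn1sw-dominant cones. Points are the sums of a library, bars are exact 95% intervals of counting error; Nr2f2 is high at the Opn1mw end, Nrxn3 at the Opn1sw end (the white-light value of 652.7 CPM in the bin from 70% to 80% includes 1 rich cell), and Alk and Kcne2 in the grey range.

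**Figure D4:**
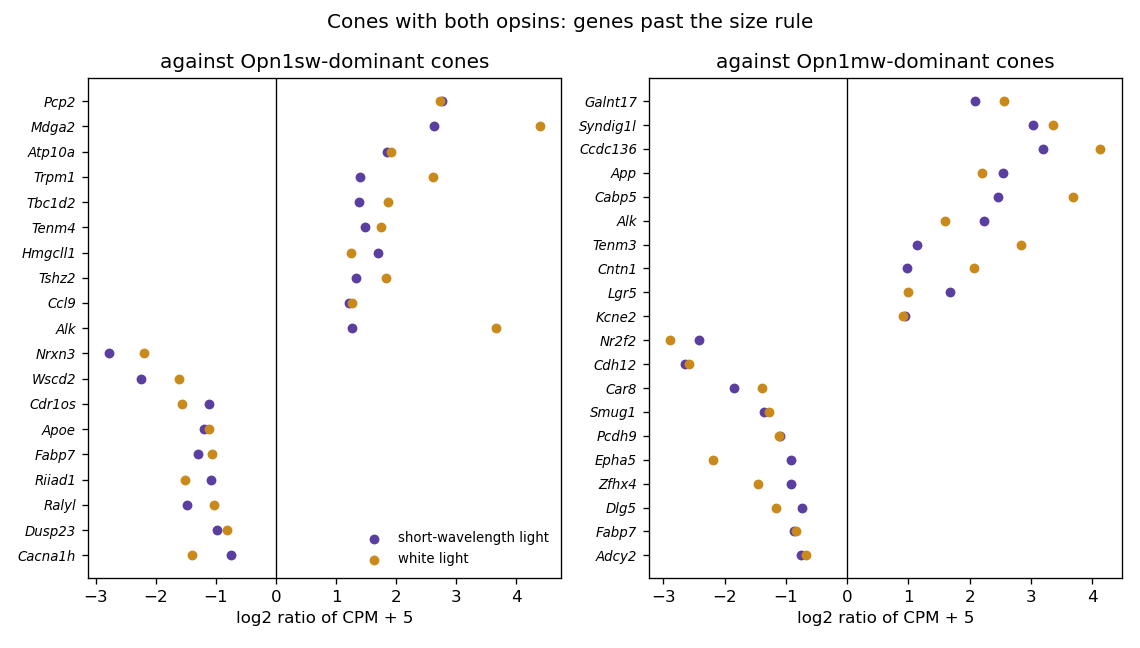
Log2 ratio of CPM plus 5 (horizontal axis) in cones with both opsins against Opn1sw-dominant (left) and Opn1mw-dominant cones (right) for the named genes, 1 point per library. Both libraries lie on the same side of 0 for each gene, as the rule required.

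Genes of opsin choice and retinal position, from 2 lists, met the rule in a few cases. Of 20 measured transcription factors of the list, 0 met the rule as higher and 1, Nr2f2, as lower against Opn1mw-dominant cones, where 0.657% of all genes met it in either direction. Of 19 measured against Opn1sw-dominant cones, 1, Thrb, was higher and 0 were lower, where 1.25% of all genes met the rule. Rxrg, the partner receptor of Thrb in cones, picked after its values were seen, was at 61.66 and 45.43 CPM, with ratios of 0.988 (0.657 to 1.52) and 0.903 (0.434 to 1.98) against Opn1sw-dominant cones. Crx, the photoreceptor homeobox gene, was at 532.8 and 514.9 CPM against 484 and 536.8 CPM in Opn1sw-dominant and 507.8 and 558.6 CPM in Opn1mw-dominant cones. The intervals are wide for Rxrg, and a difference of the size seen for Thrb could not be left out in the white-light library.

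Vax2, a homeobox gene of the ventral retina, was at 32.17 and 43.54 CPM in the selected cells, at 37.81 and 46.13 CPM in Opn1sw-dominant cones and at 11.85 and 2.551 CPM in Opn1mw-dominant cones. It was 2.71-fold (1.45 to 5.46) and 17.1-fold (2.77 to 703) higher than in Opn1mw-dominant cones. Only 2 of the 20 genes of the position list had enough UMIs in that comparison, Vax2 and Nr2f2, and they differed in opposite directions. Vax2os, the opposite-strand transcript at Vax2, singled out after its values were seen, was at 399.4 and 393.8 CPM against 227.9 and 209.1 CPM. A strand setting of the counting is not given in the sources used here. Calu and Opn1sw, which overlap on opposite strands, held 68 and 16497 UMIs in the selected cells under short-wavelength light. Rods had more of both, 72.04 and 67.59 CPM of Vax2 and 1107 and 972.5 CPM of Vax2os, and the part of rod RNA in these values was not tested.

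Genes that carry the light response did not meet the rule between the cone classes. Of 20 phototransduction genes measured, 0 met it in either comparison. Of all genes, 1.25% met it against Opn1sw-dominant and 0.657% against Opn1mw-dominant cones, so 0 of 20 does not set the list apart. Against Opn1mw-dominant cones 11 were higher and 2 lower in both libraries, with medians of 0.08 and 0.09 on the log2 scale (-0.06 for the latter when thinned to 1000 UMIs), where all genes had medians of -0.02 and -0.01. For comparison, 24.4% of all genes were higher and 28% lower in both libraries. Sag, the rod arrestin that cones also make, was at 6356 and 6588 CPM against 4609 and 5461 CPM, 1.38-fold (1.33 to 1.43) and 1.21-fold (1.14 to 1.27) higher. Guca1a, an activator of guanylate cyclase, was at 3025 and 3163 CPM against 2157 and 2744 CPM. Both genes are also abundant in rods, at 7833 and 8153 CPM and 1531 and 1744 CPM.

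Ribosomal protein genes were lower in the selected cells than in Opn1sw-dominant cones. Of 36, 30 were lower and 0 higher in both libraries, with medians of -0.16 and -0.34 on the log2 scale, and none met the 1.5-fold rule. Over all genes, 29.1% were higher and 28% lower in both libraries, with medians of -0.0044 and 0.02. Against Opn1mw-dominant cones 24 of the 36 were lower and 3 higher in both libraries, with medians of -0.06 and -0.15, the former becoming 0.05 thinned to 1000 UMIs and 0.01 with means over cells. Against Opn1sw-dominant cones rod markers lay the same way, with 14 of 15 lower and medians of -0.18 and -0.46. The Opn1sw-dominant cones of the white-light library also had the lowest median depth, 3356 UMIs, and the part of depth and rod RNA in these differences was not tested.

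Clock genes met the rule in 1 case. That gene was Per3, a period gene of the circadian clock, singled out after its values were seen. It was at 80.42 and 90.87 CPM against 49.16 and 29.35 CPM in Opn1sw-dominant cones, and at 77.49 and 94.37 CPM in Opn1mw-dominant cones. Of 16 measured clock genes, 8 were higher and 3 lower than in Opn1sw-dominant cones in both libraries, where 29.1% of all genes were higher, 28% lower and 1.25% past the rule. With limits of 20% and 80% the median of the clock genes under short-wavelength light turned from 0.13 to -0.05. Of 22 measured ribbon synapse genes, 0 met the rule in either comparison. Syt1, the synaptic calcium sensor, was at 3117 and 3055 CPM, against 2915 and 2399 CPM in Opn1sw-dominant and 3659 and 3553 CPM in Opn1mw-dominant cones. Of 26 outer segment and cilium genes, 0 met the rule in either comparison. Of all genes, 1.25% met it against Opn1sw-dominant and 0.657% against Opn1mw-dominant cones, so neither count of 0 sets its list apart.

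Between the light conditions the selected cells differed in few genes, and 8 of the 11 named below lost the call without the mixed droplets. Here a gene needed 20 UMIs over both libraries, at least 10 cells with a UMI, and both bounds of its interval past 1.5-fold. Of 9170 genes measured, 34 met this, 12 higher and 22 lower under short-wavelength light, which is 0.371%. In simulated counts the rule called 12 of 50 genes set to 2-fold and 15 of 50 set to 0.5-fold. A gene that does not meet it may therefore still differ by that much. After the exclusions above, 1 gene was left to name as higher, and 10 of 11 are named as lower.

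Bud31, a splicing factor gene, was the gene named as higher, with 72 UMIs (48.25 CPM) under short-wavelength light against 8 UMIs (15.14 CPM) under white light, 3.19-fold (1.53 to 7.66). Its richest cell held 4.167% of the UMIs. The other cones did not show this: Opn1sw-dominant cones had 34.03 and 46.13 CPM, Opn1mw-dominant cones 52.88 and 61.21 CPM, and rods 35.47 and 35.87 CPM. It no longer met the rule among cones with at least 3000 UMIs.

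The genes named as lower were Gpc6, Car10, Fstl5, B3galt2, Asic2, Kcnj3, Tmtc2, Frmd4a, Tox and Fign. Gpc6, a heparan sulfate proteoglycan, had 17 UMIs against 41, and 1 white-light droplet held 92.68% of the latter. That droplet had 17900 UMIs, 167 of Opn1sw and 50 of Opn1mw, and 199 UMIs of rod bipolar markers. For Fstl5, B3galt2, Asic2, Tox, Frmd4a and Car10 the richest cell held from 72.41% to 90.91%. Without the 4 mixed droplets, 2 of the 10 genes, Kcnj3 and Fign, met the rule, and without each library's richest cell for a gene 0 did. Dropping 1 of 70 cells against 1 of 210 also moved the median of all genes from 0.02 to 0.11 on the log2 scale. Haemoglobin genes, left out of naming, were also lower, with Hbb-bs at 16.75 and 83.3 CPM. With the mixed droplets left out, Hbb-bs was at 15.52 and 29.86 CPM, a ratio of 0.5197 (0.2597 to 1.071), and did not meet the rule. Without the mixed droplets 21 genes of 9112 met the rule in all, 14 higher and 7 lower.

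Genes of the light response, of opsin choice and of stress did not meet the rule between lights. Neurod1, a photoreceptor transcription factor with the most UMIs of its list, was at 1290 and 1054 CPM, a ratio of 1.223 (1.113 to 1.347). Thrb was at 1171 and 1221 CPM, a ratio of 0.959 (0.876 to 1.05), and Pde6c at 1251 and 1225 CPM, a ratio of 1.02 (0.934 to 1.12). For genes of this abundance the intervals leave out a 1.5-fold difference between these libraries. Rxrg had 92 and 24 UMIs, and its ratio of 1.36 (0.858 to 2.23) does not leave it out. Of 20 phototransduction, 19 transcription factor, 10 immediate-early, 14 antioxidant, 17 clock and 9 stress and cell death genes measured, 0 met the rule. Of all genes 0.371% met it, so a count of 0 does not set lists of this size apart. Ratios below 1 were found for 47.7% of all genes.

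Ribosomal protein genes leaned toward white light, and mitochondrially encoded genes did so in the summed counts. Of 36 ribosomal protein genes 32 were lower under short-wavelength light, with a median of -0.19 on the log2 scale, and all 13 mitochondrially encoded genes were lower, with a median of -0.10 that became 0.07 both with means over cells and thinned to 1000 UMIs. Of 49 nuclear genes of oxidative phosphorylation 34 were lower, with a median of -0.08. The median of all genes was 0.02, and none of these genes met the 1.5-fold rule. The other classes leaned the same way. In rods 36 of the 36 ribosomal, 13 of the 13 mitochondrial and 48 of the 49 oxidative phosphorylation genes were lower, and in Opn1mw-dominant cones 34, 13 and 43 were. Of 20 heat shock and chaperone genes, 8 were higher and 12 lower under short-wavelength light in the selected cells, with a median of -0.07. Hspa8, a constitutive chaperone of that list, was at 551.6 and 851.9 CPM there, a ratio of 0.6475 (0.5765 to 0.7279). It was at 175 and 250.1 CPM in rods, 525.6 and 977.1 CPM in Opn1sw-dominant and 438.5 and 823.8 CPM in Opn1mw-dominant cones. Hsp90aa1, of the same list and with more UMIs, had a ratio of 0.9121 (0.836 to 0.996) in the selected cells without the mixed droplets. The ribosomal, mitochondrial, oxidative phosphorylation and Hspa8 shifts between libraries were therefore also present outside the selected cells. Whether they come from the light or from the handling of 1 sample each cannot be told apart.

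Outer segment and cilium genes leaned the other way in the selected cells. Of 26 measured, 19 were higher under short-wavelength light, with a median of 0.14. In Opn1sw-dominant and Opn1mw-dominant cones 15 of 26 each were higher, with medians of 0.04 and 0.01, and in rods 19 of 26, with a median of 0.07. Of all 9170 genes 4797 were higher in the selected cells, with a median of 0.02. The all-gene medians were 0.05 in Opn1sw-dominant cones, 0.04 in Opn1mw-dominant cones and 0.01 in rods. Rpgrip1, a ciliary scaffold, was at 2419 and 2056 CPM, and Prph2, a disc rim protein, was at 1758 and 1961 CPM, in the opposite direction. Rod markers were lower in 11 of 15, with a median of -0.14.

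**Figure D5:**
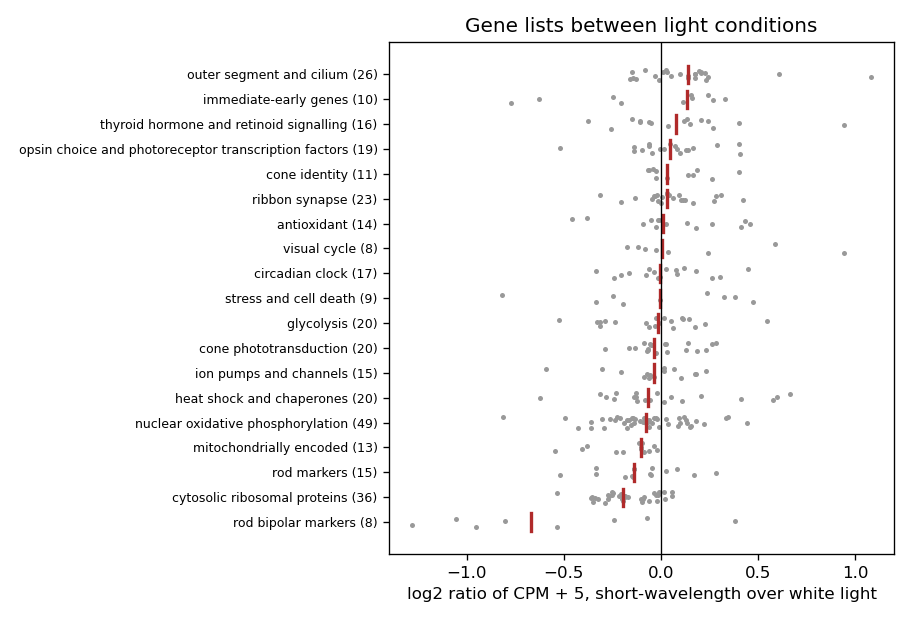
Log2 ratio of CPM plus 5, short-wavelength over white light (horizontal axis), for the measured genes (grey points) of each list in the cones with both opsins, with the list's median as a red bar and the number of genes in brackets. Ribosomal protein genes lie to the left, 32 of 36 below 0, and 7 of the 8 rod bipolar markers are below 0, a direction that turns without the mixed droplets (median 0.27 in place of -0.67).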

How the data were processed

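Retina of 1 short-wavelength and 1 white-light library was profiled by droplet single-cell sequencing of 3′ ends, as the labels' protocols state. What the authors deposited are UMI counts, not normalized, for each barcode and gene. They came from Cell Ranger 9.0.0 according to the file headers. The submitters' processing notes give mm10 as the build and list Seurat and edgeR, with no version. The matrices held 32285 genes, 16106 and 5707 barcodes and 51681469 and 20952589 UMIs, with medians of 2434 and 2784 UMIs per barcode. Of these, 16095 and 5695 barcodes were kept. The libraries shared 26 barcodes, 0 of them among cones. Cells of 1 library are not replicates, so no test was run.

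UMIs were summed per library and cone class and scaled to CPM. Ratios of CPM have exact conditional binomial intervals, levels exact Poisson and shares Clopper-Pearson intervals. Log2 ratios add 5 CPM. Rods were droplets that were no cones and had at least 10 UMIs and 1% of their UMIs from rod genes, among them Gnat1, Pde6b, Nr2e3, Cnga1 and Nrl. Some items are not reported here. Named genes are the first 10 in each direction past the size rules in the report, and the 2 to 4 members of a list with the most UMIs; other genes are said to be chosen after their values were seen or are markers of the label check. The members and the lists were chosen with earlier results of these data known. Of 562 list entries, 561 were in the files.

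Doublets were kept, since the selection rule has no doublet step. Scrublet's automatic threshold in scanpy 1.11.5 marked 0.006213% and 0.01756% of barcodes and did not work. An alternative removed the highest scores, 12.87% and 4.548%. Other alternatives changed the cell filter, the cone and opsin limits, the depth, the scaling (TMM in edgeR 4.0.16) and the size rule. The comparisons were also run on simulated counts with counting error only. Of 50 genes set to 2-fold, 12 were called between lights, 36 against Opn1sw-dominant and 35 against Opn1mw-dominant cones. Of 50 set to 0.5-fold, 15, 22 and 26 were called. Between lights 48 of 50 were called at 4-fold and 32 of 50 at 0.25-fold, and 7 of 8980 unchanged genes were. Gene positions are from GENCODE vM21. Python 3.11.15, numpy 2.4.6, scipy 1.17.1, pandas 2.3.3 and R 4.3.3 were used.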

Additional observations from a re-analysis of the deposited data

Results flagged for a closer look

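Gene lists whose median log2 ratio lay on different sides of 0 in the 2 light conditions, at least 0.1 away in both, were looked at again. Other lists on different sides had a median closer to 0 or few measured genes. Among them, against Opn1sw-dominant cones, were heat shock and chaperones (0.07839 and -0.1896) and stress and cell death (0.05185 and -0.5645). Each rests on 1 library per condition, and the differences were not tested.

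Antioxidant genes in cones with both opsins had a median of 0.1048 against Opn1sw-dominant cones under short-wavelength light and -0.2608 under white light. The former became -0.09 with limits of 20% and 80% and -0.14 with means over cells, so that both then lay below 0. Circadian clock genes had a median of 0.1329 against Opn1mw-dominant cones under short-wavelength light and -0.1068 under white light. Rod bipolar markers had a median of -0.5193 against Opn1mw-dominant cones under short-wavelength light and 1.698 under white light. The 3 mixed Opn1mw-dominant droplets under short-wavelength light held 167, 150 and 34 UMIs of rod bipolar markers, and the mixed droplet with both opsins under white light held 199.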

How the results depend on the processing

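The share of cones with both opsins follows its limits: with limits of 20% and 80% it was 24.62% and 27.49% (the short-wavelength library first), and with each cone thinned to 10 opsin UMIs it was 30.02% and 27.7%. By construction both remove cells near a limit. The Opn1sw percent of their opsin UMIs became 64.79% and 67.64% with limits of 20% and 80%, 72.96% and 74.33% thinned to 1000 UMIs per cone, and 71.61% under white light without doublets.

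Genes past the rule between lights numbered 34, and 20 with limits of 20% and 80%, 6 thinned to 1000 UMIs, 107 with means over cells, 10 with at least 50 UMIs, 10 at 2-fold and 21 without cones holding 30 or more UMIs of other cells' markers. Against Opn1sw-dominant cones they numbered 79, and 49, 7, 152 and 33 with the limits, thinning, means and 2-fold rule. Against Opn1mw-dominant cones they numbered 46, and 5, 84, 25 and 27 with thinning, means, 50 UMIs and the 2-fold rule. Fewer UMIs or a stricter rule leave fewer genes by construction.

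Of the log2 ratios of named genes over all alternatives, 1402 kept their value within counting error or spread, 89 moved and 22 changed sign. Thinned to 1000 UMIs these were B3galt2 (1.045), Fstl5 (2.067), Frmd4a, Kcnj3 and Tox (each 0.005824) between lights. Against Opn1sw-dominant cones they were Cdr1os (0.01037) and Pcp2 (-1.591) under short-wavelength light and Dusp23 (0.3804), Ralyl (0.869) and Trpm1 (-0.4649) under white light. Against Opn1mw-dominant cones they were Dlg5 (0.1245) under short-wavelength light and Adcy2 (1.521), Lgr5 (-0.2749) and Smug1 (0.08446) under white light. With limits of 20% and 80%, Ccl9 became -0.107, and with at least 20 cone UMIs and 2%, Trpm1 became -0.02434, both against Opn1sw-dominant cones under short-wavelength light.

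Leaving out mixed droplets, an alternative chosen after seeing the data, gave Gpc6 0.01307 between lights, and Pcp2 -0.9374 and Trpm1 -0.03374 against Opn1sw-dominant cones under white light. It gave the rod bipolar list 0.2662 between lights and -0.2114 against Opn1mw-dominant cones under white light. Leaving out each gene's richest cell, also chosen afterwards, raised the median of all genes from 0.01638 to 0.1125 between lights and from 0.021 to 0.1429 against Opn1sw-dominant cones under white light, since it takes more from the smaller class. It gave Fstl5 0.1414, Gpc6 0.1319, Pcp2 -0.4154, and the rod bipolar list 0.2549 and -0.2408. Against Opn1mw-dominant cones under short-wavelength light that list became 0.1345 without doublets and 0.08578 with at least 20 cone UMIs and 2%. Of the other list medians over all alternatives, 1371 stayed within 0.1 of the reported value and 184 did not. Among both groups together 171 changed sign, 156 of them medians reported at under 0.1 in size, and 13 of the 171 did so under TMM scaling. Unless the construction is named, the cause was not tested. No paired analysis was possible because each condition has 1 library with no replicate number, so that no library could be left out either.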
